A study of Drosophila melanogaster with 6 samples.

Results

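The genes described here are 9 fly genes that control how mitochondria are cleared, joined, divided and moved: Pink1, park, Marf, Opa1, Drp1, Fis1, Tango11, Miro and milt. They were chosen by name from 17494 genes in the count table, and all 9 were found by symbol and passed the filter on low counts that left 9276 genes for testing. Upon M1BP RNAi in flight muscle, Miro, the outer membrane GTPase that ties mitochondria to the transport machinery, fell by 1.26 on the log2 scale and was the only one of the 9 past the threshold (an adjusted p of at most 0.001), which 17.5% of all tested genes passed. Pink1 and milt stood lower by a similar amount without passing it. Pink1 missed it narrowly (edgeR quasi-likelihood test, adjusted p = 0.00101), and the Miro call was lost in 3 of 6 refits with 1 sample left out. Drp1, Opa1 and park stood higher in all 3 M1BP RNAi samples, and Marf, Fis1 and Tango11 lower, by smaller amounts that did not pass the threshold either. Marf, Fis1 and Tango11 changed sign when counts were scaled to all reads, mitochondrial ones included. Groups that do not overlap were common, at 64.2% of all tested genes.

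Mitochondria fuse through mitofusins in the outer membrane and Opa1 in the inner membrane, and divide when cytosolic Drp1 is recruited to receptors on their surface. The kinase Pink1 accumulates on damaged mitochondria and activates the ubiquitin ligase park, the fly Parkin, which marks outer membrane proteins, Marf among them, so that the organelle can be cleared by autophagy. In flies, loss of Pink1 or park leaves swollen mitochondria and degenerating flight muscle. Miro and its adaptor milt link mitochondria to motors that run on microtubules, a function first worked out in fly neurons.

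The data were polyA RNA-seq counts from hand-dissected indirect flight muscle, the fibres that power the wing beat, taken from female flies at 2 days of adult life and pooled from 30 flies for each sample. The 3 control samples (WT) came from Mef2-GAL4 crossed to w1888, and the 3 M1BP RNAi samples from Mef2-GAL4 crossed to a UAS RNAi line against M1BP, a zinc finger transcription factor that binds a core promoter motif. Both groups carried the Mef2-GAL4 driver, which is active in all muscles and, by the study's account, in some neurons. The knockdown was therefore not limited to the dissected fibres. The study also names the fat body as a site of Mef2 expression. With a neuronal or a fat body driver for the knockdown, it saw no phenotype of sarcomeres or mitochondria in flight muscle. Of 2 RNAi lines in the study the weaker was sequenced, and only part of the knockdown flies emerge from the pupal case, so the flies sampled are those that did. The groups carry replicate numbers that mark separate RNA preparations, and nothing in the labels ties number 1 of one group to number 1 of the other.

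Libraries held 37908823 to 64871987 counts. Genes of the mitochondrial genome took 71.5% to 76.3% of the WT counts but 54.0% to 59.4% in the RNAi samples, and the choice of scale for nuclear genes bears on every value below. Values are normalized counts, which are counts scaled with TMM factors to a common library size of 52465384. M1BP itself stood at 149, 123 and 119 normalized counts in WT and at 49.5, 50.1 and 52.0 upon RNAi, a drop by 1.36 on the log2 scale (SE 0.160, edgeR quasi-likelihood test, adjusted p = 0.000336). The M1BP call was lost without each of the 6 samples in turn (log2 fold changes of -1.42 to -1.24, edgeR adjusted p of 0.00103 to 0.00228), and when counts were scaled to all reads the value was -0.61 (edgeR adjusted p = 0.0136), while M1BP was lower in 3 of 3 RNAi samples.

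Among markers of flight muscle, Act88F and Mhc rose (log2 fold changes of 1.83 and 1.63) and the other 5 of 7 did not pass the test, with summed levels of 803220 to 825820 in WT and 1314100 to 1811700 upon RNAi. The 5 neuron markers all had negative log2 fold changes (-1.19 to -0.50, none past the threshold), and their summed level was 3074 to 4140 in WT and 1502 to 1989 upon RNAi. Of 6 fat body markers FASN1 rose (log2 fold change 1.41) and none fell past the threshold. Yp1, Yp2, Yp3 and apolpp stood lower (-1.94 to -1.28) and Lsp2 higher (3.42) without passing it. The fat body sums were 55009 to 91209 in WT against 28323 to 40367 upon RNAi. The tracheal gene trh fell by 1.33, and the summed levels of haemocyte (2364 to 2881 against 1232 to 1747), glial (87.6 to 110 against 46.5 to 49.5), tracheal (585 to 611 against 235 to 371) and tendon markers (82.2 to 160 against 38.1 to 65.4) were lower upon RNAi. Of 3 ovary markers Cp36 was at 0 in all 6 samples. In M1BP RNAi replicate 1 osk was at 127 normalized counts and nos at 16.5. In the other samples osk was at 0 to 1.83 and nos at 0 to 1.71.

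Read per kilobase of exon, so that genes can be set against each other, the 9 genes spanned a wide range of levels in WT. Pink1 and Marf were the most abundant, with 3612 ± 225 and 3405 ± 270 normalized counts per kilobase (SD, n = 3), above 96.4% and 96.3% of tested genes, and their samples overlapped. Fis1 (1320 ± 168) came next and was clear of both neighbours. Miro (971 ± 67.1) and Tango11 (849 ± 50.9) overlapped with each other, as did Opa1 (543 ± 16.0) and milt (413 ± 159). At the low end, the ligase park (109 ± 14.3) and the fission GTPase Drp1 (82.2 ± 3.67) stood near the middle of all tested genes, above 58.8% and 51.8% of them, and did not overlap. Upon M1BP RNAi Marf came first (2551 ± 245 per kilobase) and Pink1 came second (1763 ± 289), and Miro dropped from place 4 to place 6 (405 ± 29.8), behind Opa1 (795 ± 33.2) and Tango11 (695 ± 30.8).

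**Figure D1:**
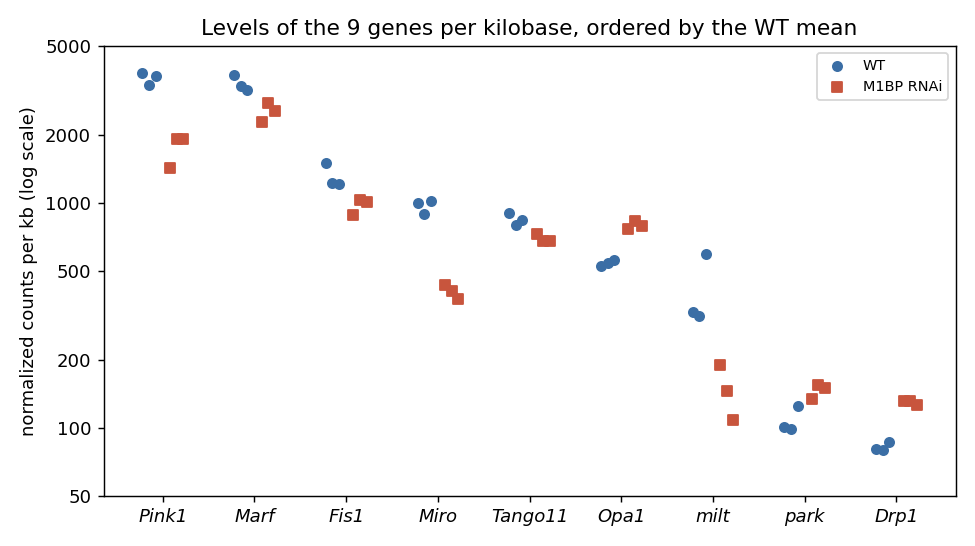
Level of each gene in each sample, in normalized counts per kilobase of exon on a log axis, with genes ordered by their WT mean and 3 points per group (circles WT, squares M1BP RNAi). Pink1 and Marf sit at the top with WT means of 3612 and 3405, and Drp1 at the bottom with 82.2.

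All 9 genes had groups that did not overlap, 3 higher and 6 lower upon M1BP RNAi. This has to be read against 64.2% of all tested genes whose groups did not overlap (33.1% higher and 31.1% lower). The median log2 fold change of the 9 genes was -0.42, and that of all tested genes was 0.02. By the threshold, 1 of the 9 was called, 11.1%, against 17.5% of all tested genes (11.0% higher and 6.58% lower). At the looser adjusted p of 0.05, 8 of the 9 passed, all but Tango11 (3 higher, 5 lower), against 56.2% of all tested genes (29.1% higher and 27.0% lower). DESeq2 called 5 of the 9, against 32.9% of the genes it tested. A lower count of an RNA in dissected tissue can come from fewer cells of a type or from less RNA per cell, and these cannot be told apart in bulk samples.

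**Figure D2:**
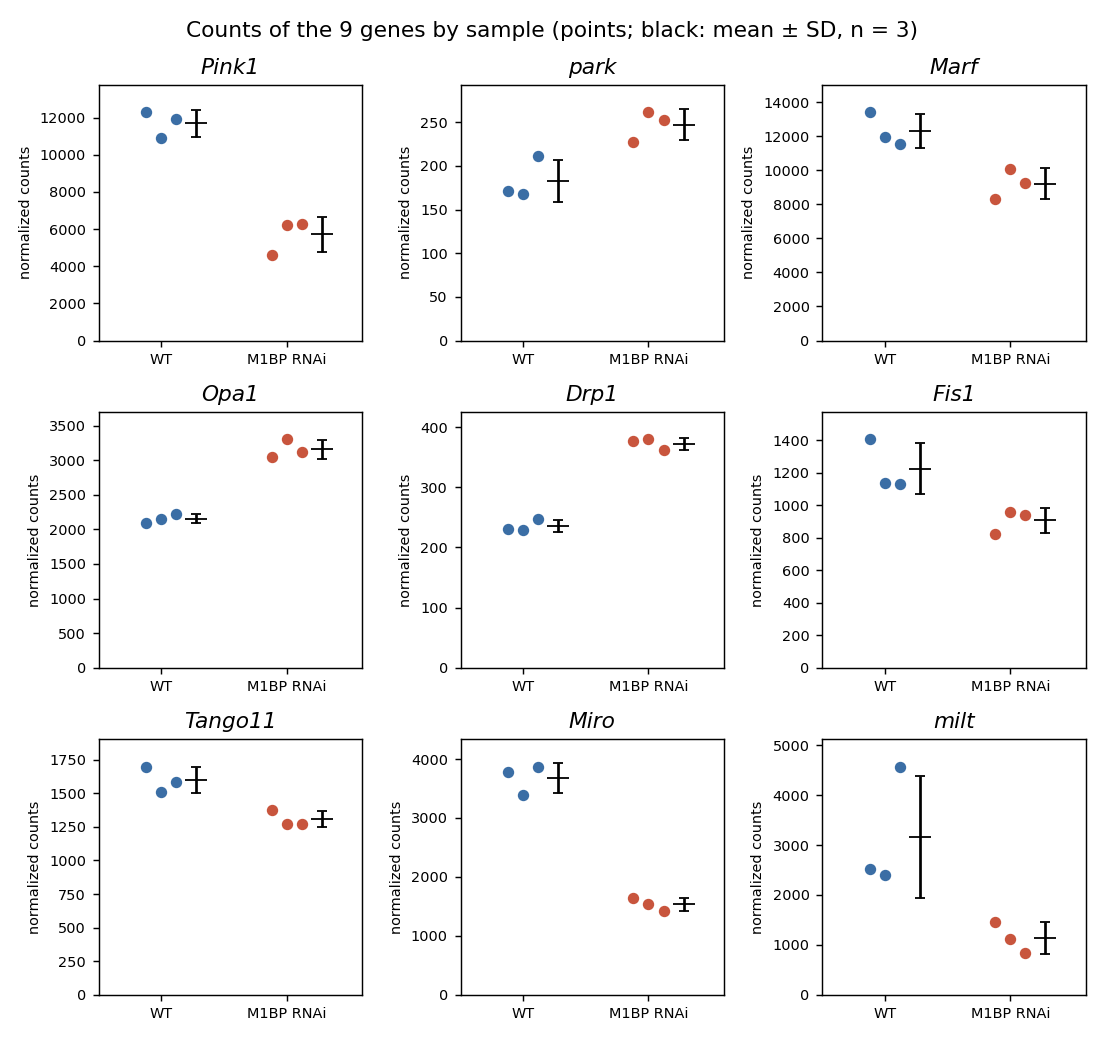
Normalized counts of each of the 9 genes by sample, on linear axes that start at 0, with the mean ± SD of the 3 samples in black. No panel has overlapping groups, and WT replicate 3 of milt (4569) stands apart from the other WT samples (2521 and 2407).

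Of the transport genes, Miro (FBgn0039140, on the minus strand of chromosome 3R, 24034362 to 24038847 in dm6) stood at 3783, 3393 and 3870 normalized counts in WT and at 1646, 1542 and 1421 upon M1BP RNAi. Every M1BP RNAi sample was below 50% of every WT sample. The fold change was 2.40-fold lower in means, or -1.26 on the log2 scale with a 95% interval of -1.54 to -0.98 (SE 0.121, edgeR adjusted p = 0.000137). The call was lost by a narrow margin without WT replicate 1, M1BP RNAi replicate 2 or M1BP RNAi replicate 3 (log2 fold changes of -1.22, -1.26 and -1.20, edgeR adjusted p = 0.00129, 0.00128 and 0.00122), and held without each of the other 3 samples. Without the sample that held osk, M1BP RNAi replicate 1, the value was -1.31 and the edgeR adjusted p 0.000363.

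The adaptor gene milt (FBgn0262872, plus strand of chromosome 2L, 7037823 to 7056010) stood at 2521, 2407 and 4569 in WT and at 1465, 1120 and 836 upon RNAi. It varied more between replicates than the other 8 genes, with a coefficient of variation of 38.4% in WT and 27.6% upon RNAi, and WT replicate 3 alone was far above its group. Its log2 fold change of -1.48 (95% interval -2.18 to -0.77, SE 0.302) was the lowest of the 9, with an edgeR adjusted p of 0.00441. Without WT replicate 3 it was -1.11 with an edgeR adjusted p of 0.00713.

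The neuron markers, which were lower upon RNAi as well, are of the tissue in which Miro and milt are best known, and their part in the Miro and milt values was not tested. Miro's log2 fold change lay below those of all 5 neuron markers (-1.19 to -0.50), and its 95% interval overlapped with those of 4 of them, all but elav (-0.80 to -0.20). Lower values were not particular to neuron markers: glial repo was at -1.02, sr of tendon at -1.26 and tracheal trh at -1.33. Fat body markers went both ways. In the muscle dissected here the level of Miro per kilobase was above that of 91.4% of tested genes.

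In the mitophagy pair, Pink1 (FBgn0029891, plus strand of chromosome X, 6683798 to 6687302) stood at 12289, 10884 and 11921 in WT and at 4631, 6237 and 6262 upon M1BP RNAi. The highest M1BP RNAi sample was far below the lowest WT sample, and M1BP RNAi replicate 1 was the lowest of all. Pink1 was 2.05-fold lower in means, with a log2 fold change of -1.03 (95% interval -1.39 to -0.68, SE 0.154) and an edgeR adjusted p of 0.00101, which just missed the threshold. The same value passed by 4 of 13 alternatives, DESeq2 among them (adjusted p = 1.52e-09). Its adjusted p over those alternatives ranged up to 0.149, where counts were scaled to all reads, mitochondrial ones included.

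The ligase gene park (FBgn0041100, minus strand of chromosome 3L, 21194754 to 21196853) was measured from far fewer reads, 100 to 414 a sample. It stood at 171, 167 and 211 normalized counts in WT and at 228, 261 and 253 upon RNAi, the opposite side from its partner kinase. The groups stood apart only narrowly, and the log2 fold change of 0.43 (95% interval 0.10 to 0.75, SE 0.140) had an edgeR adjusted p of 0.0313. An antisense gene, asRNA:CR45951, shares 1076 bases with the park exons on the other strand and had 2 to 13 counts a sample, so little was assigned to it.

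Of the fusion GTPases, Marf, the mitofusin of somatic tissues (FBgn0029870, plus strand of chromosome X, 6365949 to 6370924), stood at 13412, 11986 and 11546 in WT and at 8312, 10081 and 9283 in the RNAi samples. The lowest WT sample was above the highest RNAi sample by less than the range within WT, and the log2 fold change was -0.42 (95% interval -0.72 to -0.11, SE 0.131, edgeR adjusted p = 0.0273). The inner membrane GTPase Opa1, which also shapes cristae (FBgn0261276, minus strand of chromosome 2R, 14230611 to 14235449), took the other side. It stood at 2092, 2152 and 2218 in WT and at 3041, 3299 and 3125 upon RNAi, with tight replicates and a wide gap between the groups. Its log2 fold change was 0.55 (95% interval 0.30 to 0.80, SE 0.107, edgeR adjusted p = 0.00358).

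Of the fission genes, Drp1, the dynamin that constricts the organelle (FBgn0026479, minus strand of chromosome 2L, 2581281 to 2585430), had the highest log2 fold change of the 9. It stood at 231, 228 and 248 in WT and at 376, 380 and 361 upon M1BP RNAi, and replicates within a group differed far less than the groups. It was 1.58-fold higher in means, with a log2 fold change of 0.66 (95% interval 0.42 to 0.90, SE 0.104) and an edgeR adjusted p of 0.00134.

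The outer membrane genes that serve Drp1 stood on the other side of 0. Fis1 (FBgn0039969, minus strand of chromosome 2R, 5603587 to 5604834), a small tail-anchored fission protein, stood at 1405, 1140 and 1129 in WT and at 821, 961 and 940 upon RNAi (log2 fold change -0.43, 95% interval -0.74 to -0.12, edgeR adjusted p = 0.0264). Tango11 (FBgn0050404, minus strand of chromosome 2R, 21716780 to 21719963), the fly relative of the mammalian Drp1 receptor Mff, stood at 1698, 1508 and 1583 in WT and at 1374, 1275 and 1273 upon RNAi. Its groups stood apart by little, and its log2 fold change was -0.29 (95% interval -0.54 to -0.03, edgeR adjusted p = 0.0559), the smallest of the 9 in size.

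**Figure D3:**
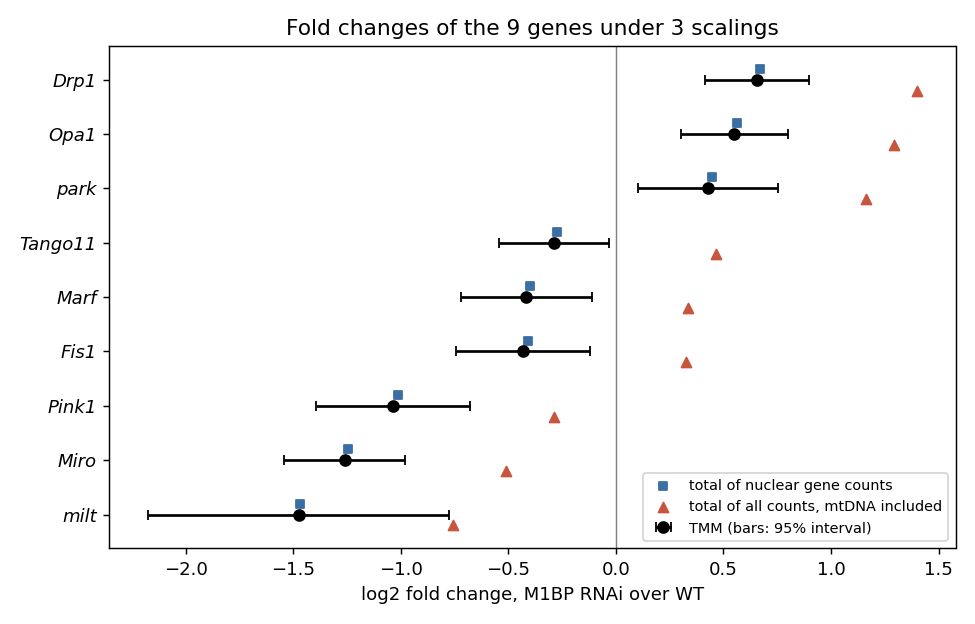
Log2 fold change of each gene, M1BP RNAi over WT, with its 95% interval under TMM scaling (circles), and without intervals when scaled to the total of nuclear gene counts (squares) or of all counts (triangles). Squares sit on the circles, while triangles are shifted to the right and put Marf, Fis1 and Tango11 above 0.

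Scaling to all reads, mitochondrial ones included, moved the median log2 fold change of all tested genes from 0.02 to 0.77, and the share of calls that were higher from 62.5% to 94.95%. On that scale Marf, Fis1 and Tango11 turned to 0.34, 0.33 and 0.47, Pink1 was at -0.29 (edgeR adjusted p = 0.149), Miro at -0.51 (edgeR adjusted p = 0.0190) and milt at -0.76 (0.0917 by the same test). Relative to the shift of 0.77, Marf lay at -0.43, Fis1 at -0.44, Tango11 at -0.30, Pink1 at -1.06, Miro at -1.28 and milt at -1.53. Drp1 (1.40) and Opa1 (1.29) passed the threshold on it, and lay 0.63 and 0.52 above the shift. The value of park was 1.16 there, 0.39 above the shift, with an edgeR adjusted p of 0.001 that, unrounded, lay just over the threshold. With the mitochondrial reads left out and the nuclear total as the scale, the values differed from the TMM values by at most 0.02, with -1.25 for Miro and 0.67 for Drp1.

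Ratios of 2 genes within a sample do not depend on the scale. In counts per kilobase, Marf exceeded Drp1 by 46.0, 41.6 and 36.95 times in the WT samples and by 17.5, 21.1 and 20.4 times upon M1BP RNAi. The groups stood well apart, and the log2 ratio was lower by 1.08 in means (5.37 ± 0.16 against 4.29 ± 0.14, SD, n = 3). The ratio of Fis1 to Drp1 was likewise 18.8, 15.4 and 14.1 against 6.75, 7.83 and 8.04, and that of Tango11 to Drp1 11.2, 10.1 and 9.74 against 5.57, 5.12 and 5.37. Opa1 and Drp1 kept closer together, with ratios of 6.47 to 6.81 in WT against 5.84 to 6.28, groups that did not overlap, and a log2 difference of -0.11.

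Pink1 exceeded park per kilobase by 37.4, 33.9 and 29.4 times in WT and by 10.6, 12.4 and 12.9 times upon RNAi, the widest shift of the 6 ratios (log2 difference -1.49). The milt to Miro ratio was 0.33, 0.35 and 0.58 in WT and 0.44, 0.36 and 0.29 upon RNAi. Its groups overlapped (log2 difference -0.18, exact two-sided permutation p = 0.7, adjusted 0.7 over the 6 ratios), and the difference turned to 0.075 without WT replicate 3. Each of the other 5 ratios had an exact two-sided permutation p of 0.1, the smallest that 3 against 3 samples can give, and 0.12 after adjustment over the 6 ratios, so the design could not pass 0.05.

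**Figure D4:**
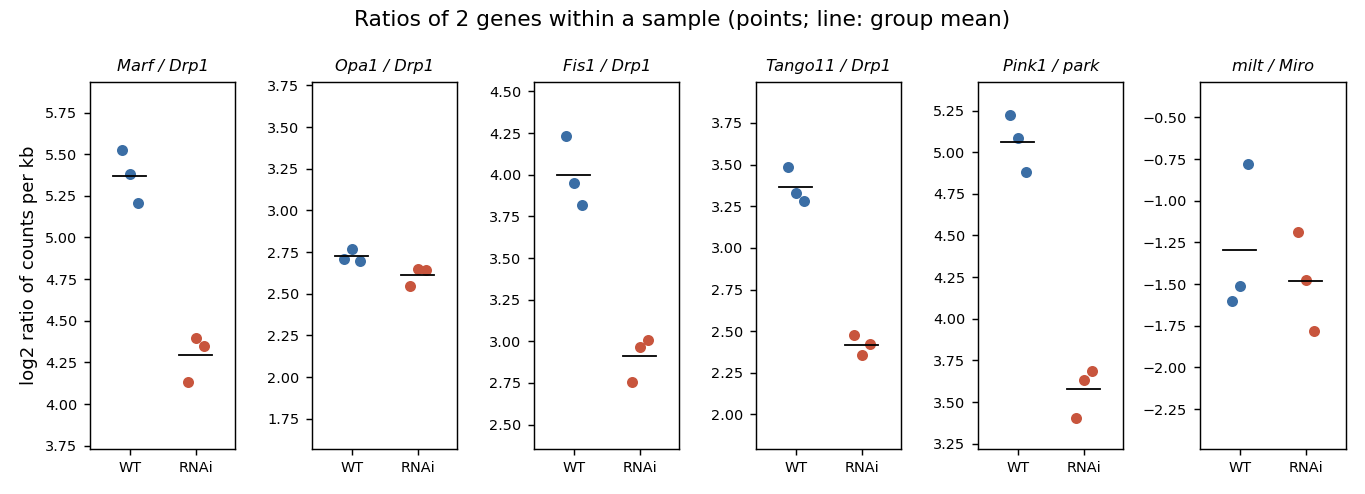
Log2 ratio of counts per kilobase of 2 genes within each sample, with a line at each group mean, in panels that span the same range of 2.2 log2 units. The WT and M1BP RNAi points are separate in every panel but milt to Miro, and lie closest together, among the separate ones, for Opa1 to Drp1 (2.72 and 2.61 in means).

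Of 15 partners in mitophagy, 14 were tested and 6 passed the threshold, 5 higher and 1 lower, 42.9% of those tested against 17.5% of all tested genes. Their median log2 fold change was 0.96, and that of all tested genes 0.02. This list and the lists below were chosen with earlier results of these data known, so their shares are a description only. TER94, the fly p97 ATPase that pulls ubiquitinated proteins from membranes and complexes throughout the cell, rose from 2078, 1809 and 1998 normalized counts to 18740, 17213 and 16675 (log2 fold change 3.16, SE 0.131, edgeR adjusted p = 5.97e-06). Phb2, an inner membrane prohibitin that acts as a mitophagy receptor in mammals, rose by 2.52 (328 to 1887.5 in means). The rhomboid protease gene rho-7, whose human relative PARL cleaves PINK1, rose by 1.78. Pgam5, a mitochondrial phosphatase, rose by 1.68 and Mul1, a ubiquitin ligase that acts on Marf in flies, by 1.00.

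BNIP3, a mitophagy receptor of the outer membrane, fell by 0.93 (931 ± 61.0 against 490 ± 21.8 normalized counts, edgeR adjusted p = 0.000317). It was at -0.17 when scaled to all reads, with an edgeR adjusted p of 0.281. A further 4 partners stood higher without passing: ref(2)P, the fly p62, at 1.03 (edgeR adjusted p = 0.00118), the protease HtrA2 at 0.99, clu, which binds mitochondria and ribosomes, at 0.93 and Fundc1 at 0.46. The ligase ntc, the deubiquitinases Usp30 and Usp8, and Vps13D had log2 fold changes of -0.25 to 0.13 with edgeR adjusted p of 0.181 to 0.733. Paris was at 0 counts in all 6 samples. The count of 6 calls dropped to 3 without WT replicate 1, WT replicate 2, M1BP RNAi replicate 2 or M1BP RNAi replicate 3, and TER94, Phb2 and rho-7 passed without each of the 6 samples in turn. In the refits with 3 calls, 6.33% to 7.56% of all tested genes passed, against 17.5% with all 6 samples.

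Of 13 further genes of fusion, fission and inner membrane shape, 11 were tested and 5 passed the threshold, 3 higher and 2 lower, 45.5% of those tested against 17.5% of all tested genes, with a median log2 fold change of 0.58 against 0.02 for all of them. The 3 that rose are best known for protein quality control in the inner membrane: the prohibitin Phb1 (2.07) and the m-AAA protease subunits Afg3l2 (1.37) and Spg7 (1.29). QIL1, a subunit of the MICOS complex at crista junctions, fell by 1.35 (10615 ± 1100 against 4167 ± 852 normalized counts), while Mitofilin, the core of that complex, was at 0.70, and Chchd3 and MICOS26-27 at 0.17 and 0.20, none of the 3 past the threshold. Gdap1, an outer membrane protein of the glutathione transferase family, fell by 1.43, a call lost without each of the 6 samples in turn. When scaled to all reads, QIL1 was at -0.59 and Gdap1 at -0.67 (edgeR adjusted p = 0.0277 and 0.0267), neither past the threshold. The i-AAA protease YME1L, whose mammalian counterpart cleaves OPA1, was at 0.70 (edgeR adjusted p = 0.00186). The fission factor Mtfp1 stood at -0.64 and the outer membrane protein Miga at 0.58, neither past the threshold, and fzo, the mitofusin of male germ cells, and zuc were not tested for want of counts. These 5 calls dropped to 0 without WT replicate 1 or WT replicate 2, to 1 without M1BP RNAi replicate 2 or 3, and to 3 without WT replicate 3 or M1BP RNAi replicate 1. Fewer of all tested genes passed in these refits as well. Their share was 6.33% and 7.56%, 7.22% and 7.31%, and 12.1% and 13.6%, in the same order.

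Of 9 motor genes 1 passed, 11.1% against 17.5% of all tested genes. It was DCTN2-p50, the dynamitin subunit of dynactin, which fell by 1.72 (326 ± 47.5 against 98.8 ± 23.1 normalized counts, edgeR adjusted p = 0.000312). When scaled to all reads it was at -0.97 and no longer past the threshold (edgeR adjusted p = 0.00721). The median log2 fold change of the 9 motor genes was -0.14, against 0.02 for all tested genes. Khc and Klc, the heavy and light chains of kinesin-1, to which milt binds, stood at 0.23 and -0.14 with edgeR adjusted p of 0.148 and 0.270. The dynein heavy chain Dhc64C was at -0.50, the light intermediate chain Dlic at -0.32, the intermediate chain sw at 0.26, the light chains robl and ctp at 0.48 and 0.97 (edgeR adjusted p = 0.00114 for ctp), and DCTN1-p150 at -0.18. The call of DCTN2-p50 was lost without WT replicate 1, WT replicate 3, M1BP RNAi replicate 2 or M1BP RNAi replicate 3 (log2 fold changes of -1.64, -1.65, -1.59 and -1.66, with edgeR adjusted p of 0.00147 to 0.00232).

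**Figure D5:**
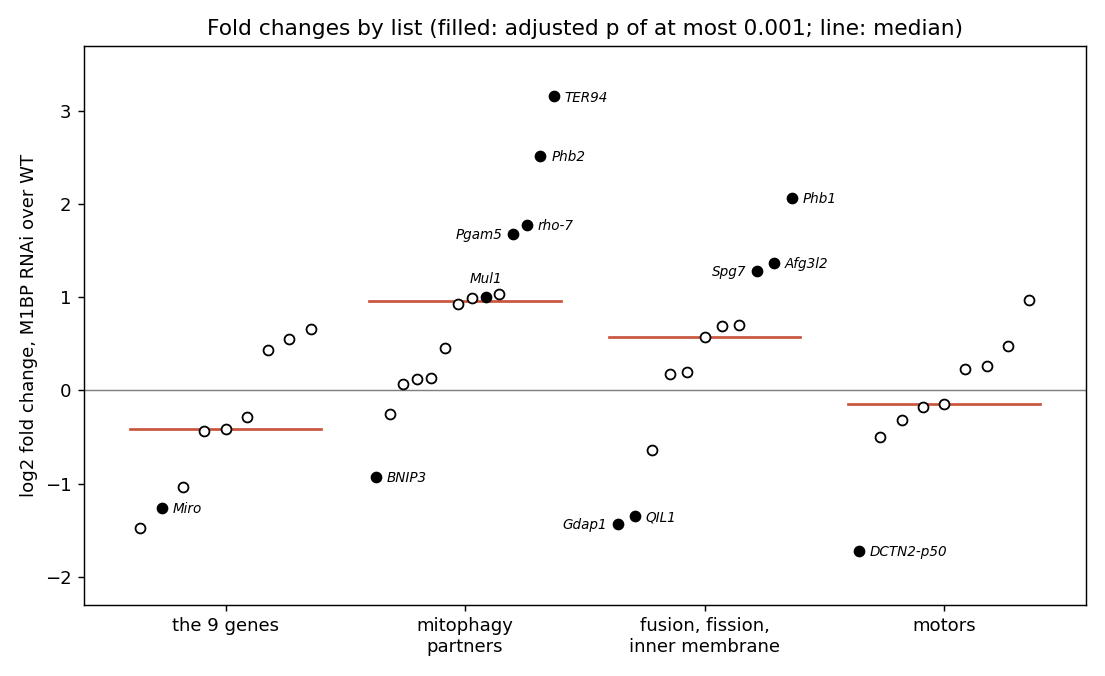
Log2 fold change, M1BP RNAi over WT, of every tested gene in the group of 9 and in the 3 lists of related genes, with genes past the threshold filled and named and a line at each median. Medians are -0.42 for the 9 genes, 0.96 for mitophagy partners, 0.58 for genes of fusion, fission and inner membrane shape and -0.14 for motors.

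By Pearson correlation of log2 normalized counts over the 6 samples, the genes most like Drp1, the highest of the 9 by fold change, were Srp54 (r = 0.9992), Mat89Ba (0.9988) and Alg3 (0.9986). Those 3 differed widely in size of change, with log2 fold changes of 1.32, 0.95 and 3.60. The genes most like milt, the lowest of the 9, were CG1299 (r = 0.9948), Mpcp2 (0.9937) and glec (0.9929), which like milt were highest in WT replicate 3. With 6 samples in 2 groups, these values mostly carry the difference between the groups and serve as a description only.

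Apart from park, exon overlaps were small. Pink1 shares 340 bases with CG44303 (0 to 6 counts a sample), Marf 347 bases with lncRNA:CR44816 (4 to 11 counts) and Miro 633 bases with spas, all on the opposite strand. The gene spas had 113 to 205 counts a sample against 1540 to 4093 for Miro. The only neighbour on the same strand was Caper, which shares 56 bases with milt, 0.73% of the milt exons.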

How the data were processed

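The authors aligned reads to dm6 and deposited raw counts per gene (the submitters' processing notes name bcl2fastq 2.17.1.14, Subread, featureCounts and DESeq2 1.3.0). The strand setting of the counting was not given in the sources used here. Symbols came from a deposited table of comparisons, joined by gene ID; its fold changes and p-values were not used. Exon overlaps came from the exon coordinates given with the deposited counts. Gene ends were checked against an Ensembl annotation of the same release, in which 17358 of 17494 genes were found. Counts were tested with edgeR 4.0.16 (R 4.3.3; TMM, filterByExpr, quasi-likelihood F test of group, Benjamini-Hochberg over 9276 genes). Calls required an adjusted p of at most 0.001. Alternatives were DESeq2 1.42.0 and other scalings, filters, thresholds and samples; scaling to the nuclear total was chosen after seeing the data. Fits were tested on simulated data with 200 of 8927 genes changed by 2 on the log2 scale, up or down. The simulation was not built with a shift in the mitochondrial share, so it does not bear on the choice of scale. Within-sample ratios were compared by exact permutation over samples. Correlations used log2 of normalized counts plus 0.5. No 2 libraries of the same group agreed within sampling noise.

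The members and lists were chosen with earlier results of these data known. Genes named were M1BP, the 9 members, list genes past the threshold or of lowest adjusted p, genes whose exons overlap a member's, and the 3 genes most correlated with the highest and the lowest member; the other list genes are named to account for every one. The 3 samples of a group were separate RNA preparations, and p-values measure the spread between them.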

Additional observations from a re-analysis of the deposited data

How the results depend on the processing

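The count of all genes past the threshold, 1626, was 3049 with DESeq2, 2713 when scaled to all reads, 790 with the replicate block and 5209 at an adjusted p of 0.05, and 602 to 1278 with 1 sample left out. As shares of the genes tested, these were 17.5%, 32.9%, 29.2%, 8.52%, 56.2% and 6.33% to 13.6%. The share was 17.8% with RLE factors, 17.7% with mtDNA genes left out, 15.0% without the filter and 16.7% with the nuclear total. The counts that follow have to be read against these shares. Of the 9 genes, the count of 1 became 5 with DESeq2 (Pink1, Opa1, Drp1, Miro and milt), 2 with RLE factors, 2 with mtDNA genes left out and 2 without the filter on low counts (Pink1 and Miro each time), 2 when scaled to all reads (Opa1 and Drp1), 0 with the replicate block, 8 at 0.05, and 0 to 1 with 1 sample left out. Mitophagy partners, 6 calls, had 10 when scaled to all reads (without BNIP3), 3 with the block, 10 at 0.05, and 3 to 6 with 1 sample left out. Fusion, fission and inner membrane genes, 5 calls, had 5 when scaled to all reads (Mitofilin and YME1L in place of QIL1 and Gdap1), 1 with the block, 8 at 0.05, and 0 to 3 with 1 sample left out. Motors, 1 call, had 2 with DESeq2, 3 when scaled to all reads (ctp, robl and sw, without DCTN2-p50), 2 without the filter, 5 at 0.05, and 0 to 1 with 1 sample left out. When scaled to all reads, Marf (0.34), Fis1 (0.33) and Tango11 (0.47) changed sign, and the milt to Miro log2 difference ran from -0.34 to 0.075 with 1 sample left out. The fold changes of the other 6 genes kept their direction under all 13 refits. Asking for 1.5-fold as well changed no count, and the nuclear total left the members at 1.

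Same-numbered samples deviated together only weakly (correlations of 0.05, 0.18 and -0.02), so the numbers were not taken to pair samples, and with the replicate block Miro had a log2 fold change of -1.26 and an edgeR adjusted p of 0.00115, and M1BP -1.35 and 0.00205. Park rests on 100 to 414 counts a sample, the fewest of the 9, and 3 samples a group limit every interval. The causes of these differences were not tested.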
